A study of Caenorhabditis elegans with 2 samples.

Results

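The 31 genes described here encode the enzymes of glycolysis, gluconeogenesis and the oxidative and nonoxidative pentose phosphate pathway of Caenorhabditis elegans, with glycogen synthase, glycogen phosphorylase and the pyruvate dehydrogenase complex at their ends. They were chosen by pathway, by name, with earlier results of these data known. They make up 31 of the 19973 protein-coding genes of the nuclear chromosomes, and the other 19942 were treated by the same rule. The measurement was ChIP-seq of MXL-2 in whole L4 larvae, in 2 biological replicates of 1 group. The strain, RW12316, carries mxl-2 tagged at its own locus by CRISPR with TY1, EGFP and 3xFLAG, chromatin was precipitated with an antibody against GFP although the antibody field names mxl-2, and larvae were taken 48 h after synchronisation as starved L1. Every value therefore concerns a tagged protein averaged over all tissues of the larva. No control library was analysed here. The lists carry no read counts, and sequencing depth is therefore unknown.

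MXL-2 is a basic helix-loop-helix leucine zipper protein, the Mlx-like partner of MML-1, which is the worm's Mondo-like protein. In mammals the related pairs MondoA-Mlx and ChREBP-Mlx bind E-box-like carbohydrate response elements when sugar phosphates accumulate, and the liver pyruvate kinase gene is the classic target of ChREBP. Glycolysis splits glucose to pyruvate, gluconeogenesis runs the reverse course through its own carboxykinase and bisphosphatase, and the pentose phosphate pathway supplies reducing power and ribose. The palindromic E-box CACGTG is a known site of Max-like and Mlx-like dimers.

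The following stretches are examples of summits, the points of highest enrichment, at or near genes of these pathways, and are not typical of them. Of the 4 regions given to the set in the whole-experiment list, described below, 1 had CACGTG near its summit, that of pyk-1, which is not shown. The stretches near gpd-1 and dlat-1 are from regions given to neighbouring genes. The aldo-1 peak passed the threshold in the conservative list only. Capitals mark CACGTG; all stretches were read 5′ to 3′ from the plus strand of the RefSeq genome WBcel235 (ce11), and each spans 50 bp to either side of a summit except the pair. The first lies upstream of the aldolase gene aldo-1 (III:13566756-13566856), with its E-box toward the edge of the window. The second is a pair of E-boxes, 5 bp apart, in the strongest region upstream of the glyceraldehyde phosphate dehydrogenase gene gpd-1 (II:10388475-10388511). The third lies upstream of dlat-1, which encodes the acetyltransferase of the pyruvate dehydrogenase complex, inside an intron of the neighbouring gene fntb-1 (V:14448831-14448931). The last lies in a coding exon of gpd-3, another glyceraldehyde phosphate dehydrogenase gene, and holds no E-box of any form CANNTG (X:3112365-3112465).
aldo-1 upstream: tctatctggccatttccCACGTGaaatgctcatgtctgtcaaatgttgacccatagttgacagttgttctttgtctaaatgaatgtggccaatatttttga
gpd-1 upstream pair: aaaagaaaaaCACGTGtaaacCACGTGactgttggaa
dlat-1 upstream: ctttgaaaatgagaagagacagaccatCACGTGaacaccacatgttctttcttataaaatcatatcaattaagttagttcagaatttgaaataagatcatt
gpd-3 exon: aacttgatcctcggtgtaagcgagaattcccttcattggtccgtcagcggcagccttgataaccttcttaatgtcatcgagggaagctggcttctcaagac

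The authors' thresholded lists hold peaks at an irreproducible discovery rate (IDR) of 0.01 or lower; the IDR measures how well a peak's rank repeats between 2 sets of reads. A peak's signal is its enrichment on the peak caller's scale. The regions of the set found in both the whole-experiment and the conservative list had the same signal in each, whereas signals in the replicates' lists were lower and are compared here within a list. Overlapping peaks were joined into regions, and a region was given to the gene whose body held its summit or, failing that, to the nearest gene with a 5′ end within 5000 bp. The whole-experiment list held 968 regions, with a median signal of 82.1 and a highest signal of 2040.1. The conservative list held 993 regions, and the lists of replicates 1 and 2 held 448 and 454.

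The whole-experiment list held regions at 4 enzyme genes of the set: the pyruvate kinase gene pyk-1, the phosphoenolpyruvate carboxykinase gene pck-2, the hexokinase gene hxk-1 and gpd-3. That is 4 of 31 genes (12.9%, exact 95% interval 3.63 to 29.8), against 783 of the 19942 other protein-coding genes (3.93%, 3.66 to 4.21). In the conservative list it was 5 genes (16.1%), with aldo-1 added, against 4.02% of other genes. Only pyk-1 and pck-2 were found in the replicates' own lists, which is 6.45% of the set in each, against 1.82% of other genes in replicate 1 and 1.89% in replicate 2. The set's share was the higher in each list. Its exact 95% intervals are wide: those of the whole-experiment list and of both replicates' lists (0.791 to 21.4) include the share of other genes, and that of the conservative list (5.45 to 33.7) lies above it. The gene added in the conservative list, aldo-1, had a region that ranked 982 of 993 there. The set was chosen with earlier results of these data known, and the intervals do not allow for that choice. No test was made, since there is 1 group and the genes are not replicates.

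**Figure D1:**
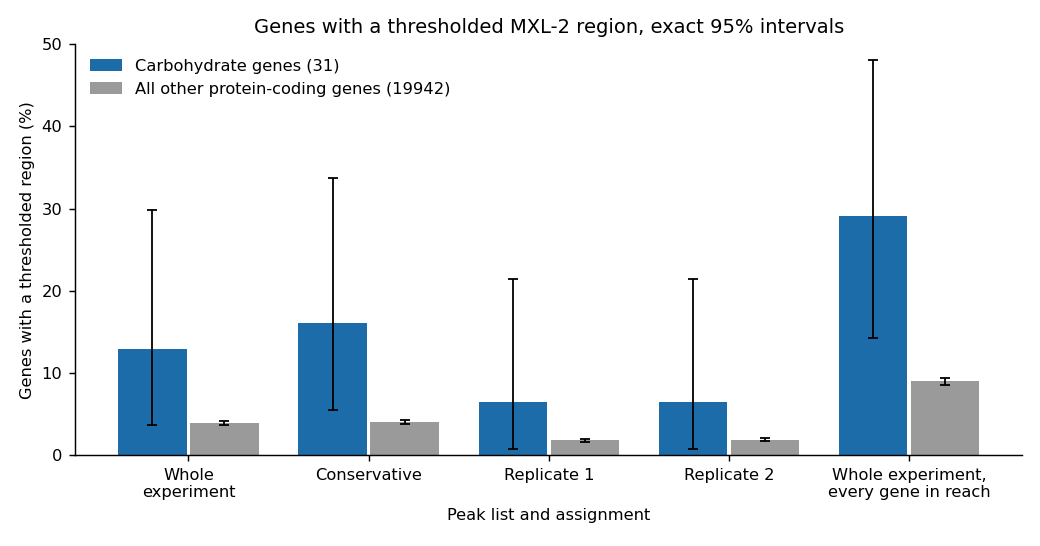
Percentage of genes with a thresholded MXL-2 region in each list, for the 31 carbohydrate genes (blue, left bar of each pair) and the 19942 other protein-coding genes (grey, right bar). Error bars are exact 95% binomial intervals over genes; the blue bars run from 6.45% in each replicate's list to 29.0% where a region counted for every gene in reach.

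The median space over which a gene could take a region was close in the set and in other genes. The territory of a gene, meaning all bases whose summits the rule would give to it, had a median of 3646 bp in the set and 3554.5 bp in other genes. The set took 4 regions over 0.157 Mb, or 25.4 per Mb, and other genes took 916 regions over 94.6 Mb, or 9.68 per Mb. The set's rate rests on 4 regions and was given no interval. Whether territory bears on the set's share was not tested. Of the 4 genes with a region, 3, pyk-1, pck-2 and hxk-1, were among the 9 members in the class of largest territories (5880 bp or more), a class in which 7.57% of other genes had a region. None of the 18 members in the 2 middle classes had one, against 2.23% and 4.15% of other genes there. At these shares 0 of 18 does not stand apart. In the class of up to 2144 bp it was 1 of 4 members, gpd-3, against 1.76% of other genes.

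The hexokinases phosphorylate glucose on entry. The hxk-1 region (I:9275239-9275498) lay in the long first intron at 3320 bp from the 5′ end and at −1575 bp from the start of a shorter transcript, ranked 687 of 968 with a signal of 70.6 and had an IDR of 0.00522. The peak was present as a candidate in both replicates, at 31.6 (IDR 0.0727) in replicate 1 and 37.8 (IDR 0.0692) in replicate 2, and passed the threshold in neither. Within 50 bp of the summit there was no CANNTG; the 1 CACGTG of the gene, at 3932 bp, had no candidate within 100 bp. The paralogues hxk-2 and hxk-3 had no region, and their strongest candidates had signals of 34.9 and 29.9.

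The next enzymes of the upper part of the pathway had candidates but no whole-experiment region. These are phosphoglucose isomerase (gpi-1), the phosphofructokinases pfk-1.1 and pfk-1.2, the aldolases aldo-1 and aldo-2, and triose phosphate isomerase (tpi-1). The strongest candidate of pfk-1.1, which commits sugar to glycolysis, lay at −1351 bp with a signal of 54.2, and the candidates overlapping it had signals of 24.5 in replicate 1 and 28.0 in replicate 2. The upstream peak of aldo-1, at −1869 bp, had a signal of 51.1, and overlapping candidates of 31.8 in replicate 1 and 31.7 in replicate 2, the first with a summit that the rule gave to another gene. It stood just outside the whole-experiment threshold (IDR 0.0110) and just inside the conservative one (IDR 0.00629). In the conservative list it was joined with an overlapping peak into a region of 462 bp, which ranked 982 of 993. The overlapping candidates in the replicates' own ranked lists had an IDR of 0.269 in replicate 1 and 0.692 in replicate 2. The CACGTG of the aldo-1 peak, shown above, lies at −1839 bp.

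The 4 glyceraldehyde phosphate dehydrogenase genes form near-identical pairs, gpd-2 with gpd-3 and gpd-1 with gpd-4, whose coding sequences agree at 97.4% and 99.0% of bases. The gpd-3 region (X:3112285-3112544) lay in the coding exon at 926 bp from the 5′ end, with a signal of 62.1 (rank 883 of 968, IDR 0.00846). Its candidates had signals of 29.98 (IDR 0.320) in replicate 1 and 32.8 (IDR 0.0370) in replicate 2. The same stretch of gpd-2 was identical at 254 of 260 bases (97.7%), so reads from the copies could be placed at either and the region's assignment to gpd-3 is uncertain. The sources used here do not say how reads with several matches were placed. Other candidates stood close to it in height: a candidate with a signal of 61.9, at 1346 to 1605 bp and so beyond the 3′ end of gpd-3, missed the threshold, and the strongest candidate of gpd-2 had a signal of 49.6. The strongest candidates of gpd-1 and gpd-4 had signals of 28.8 and 40.9, and gpd-4 had no candidate in either replicate.

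Between these and pyruvate kinase come pgk-1 (phosphoglycerate kinase), ipgm-1 (the cofactor-independent phosphoglycerate mutase) and enol-1 (enolase), none with a region of its own. The candidate of pgk-1, in its coding exon at 1161 bp, was the strongest among the members without a region, with a signal of 55.2 and with 23.5 and 32.5 in replicates 1 and 2. The ipgm-1 candidate was the weakest of the whole set, with a signal of 23.9, and that gene had no candidate in replicate 2.

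Pyruvate kinase makes pyruvate from phosphoenolpyruvate and closes glycolysis. The pyk-1 region (I:9166959-9167224), at −1338 bp in the space after the neighbouring gene eef-2, had a signal of 478 and ranked 21 of 968. In replicate 1 it had a signal of 223 and ranked 23 of 448, and in replicate 2 it had a signal of 252 and ranked 21 of 454. Its IDR was 1e-05 in the whole-experiment list and in each replicate's list, the lowest value these lists give. It was the strongest region given to any gene of the set: the next, at pck-2, had a signal of 102. Within 50 bp of the summit lay 1 CACGTG, besides the variant CACATG. In the whole-experiment list pyk-1 was the 1 gene of the set with a CACGTG at its region. A second pyk-1 peak, at 213 bp in the first intron (I:9168515-9168774), was in the conservative list only, with a signal of 66.2 and with 34.5 and 30.6 in the replicates. The paralogue pyk-2 had no region, and its strongest candidate had a signal of 41.4. For ldh-1, lactate dehydrogenase, it was 31.9.

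Phosphoenolpyruvate carboxykinase opens gluconeogenesis. The pck-2 region (I:7868997-7869256) lay 2991 bp from the annotated 5′ end of the gene but 31 bp from the start of a shorter transcript, 1 of 5 annotated starts, in the 5′ UTR of that isoform. It had a signal of 102 (rank 310 of 968, IDR 0.000436), with 62.7 (IDR 0.00121) in replicate 1 and 48.7 (IDR 0.00953) in replicate 2, and so passed in both. Its summit held a CAATTG and no CACGTG. The 5′ end of the nested gene R11A5.6 lay nearer, at −1209 bp, so that assignment by the nearest 5′ end alone takes this region from pck-2. Replicate 2 listed a further region, in the intron at 2254 bp (I:7868268-7868511, signal 51.2, IDR 0.00365), where the replicate 1 candidate had a signal of 11.0 and an IDR of 0.937. A further peak inside the same intron, at 1652 bp (I:7867658-7867917, signal 101), lay within R11A5.6 and was given to it. This peak was thresholded in replicate 1 at 48.1 and not in replicate 2, where its signal was 49.98. It held a CACGTG at 1584 bp, farther than 50 bp from its summit. The paralogue pck-1 had no region, and its strongest candidate had a signal of 38.8. The fructose bisphosphatase gene fbp-1 had its strongest candidate at −291 bp, with a signal of 52.0 and an IDR of 0.0186, and with 25.4 and 29.6 in replicates 1 and 2.

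**Figure D2:**
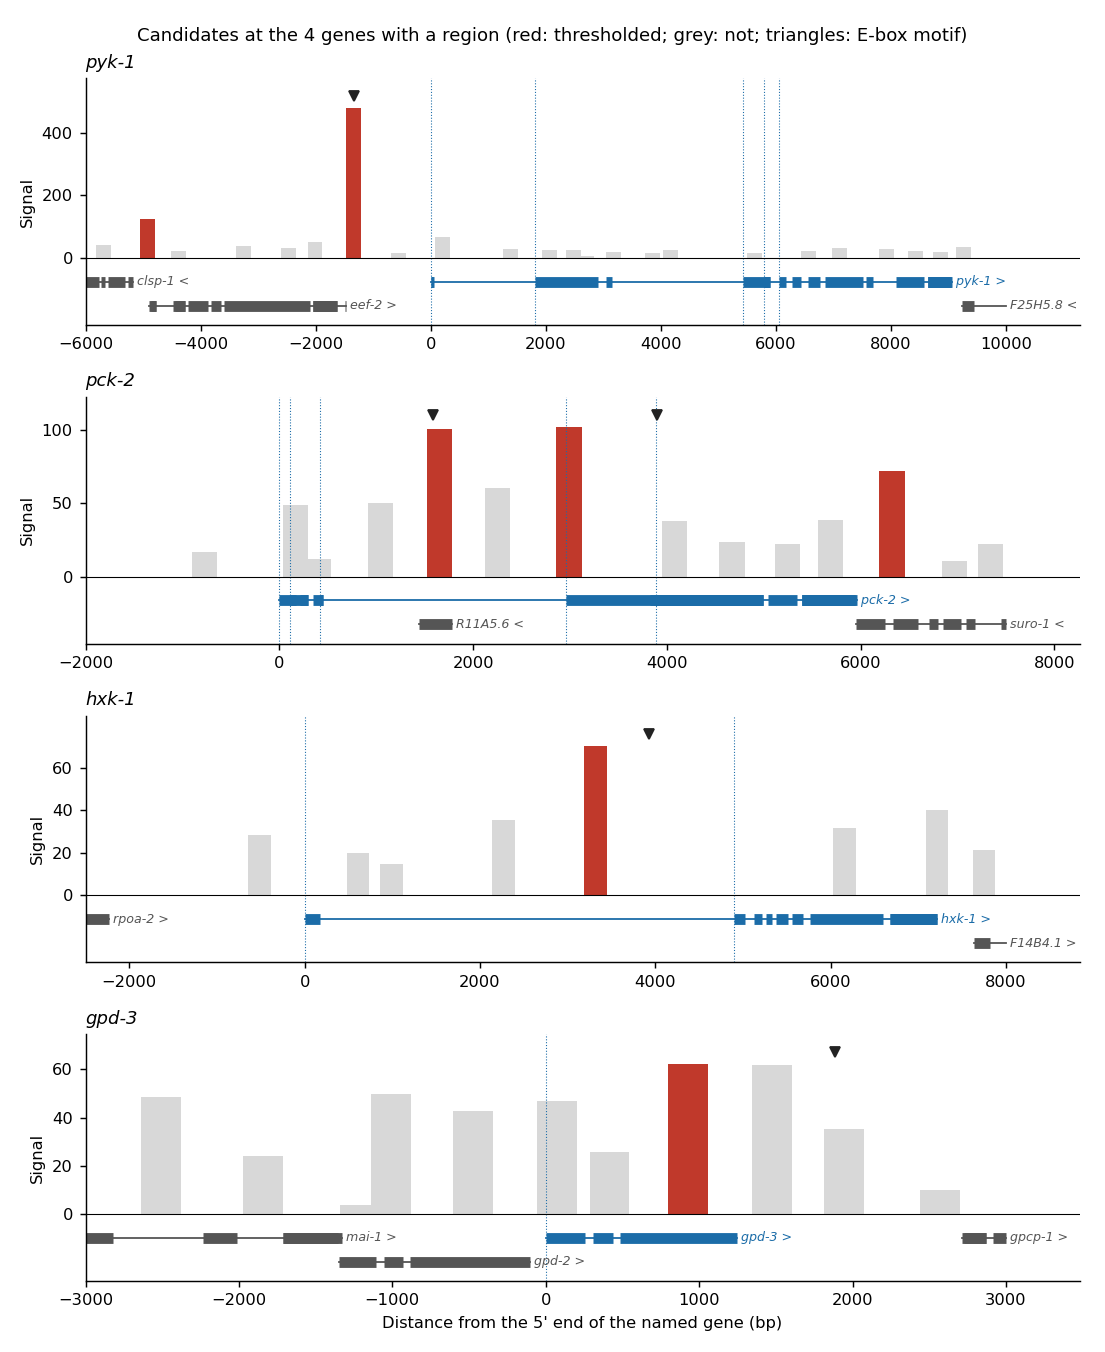
Whole-experiment candidates around pyk-1, pck-2, hxk-1 and gpd-3, as signal (vertical axis, peak caller's scale) against distance from the 5′ end of the named gene in bp, with gene models beneath (boxes are exons, dotted lines the named gene's transcript starts) and triangles at each CACGTG. Red bars are thresholded and grey bars are not: the tallest bar of the pyk-1 panel, 478, lies upstream of the gene with a lower red bar of 124 farther out, while the red bar of 62.1 in gpd-3 is level with a grey one of 61.9.

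The genes at the ends of the pathways had no region. For glycogen, pygl-1 (glycogen phosphorylase) had a candidate of 55.0 in an intron at 409 bp, with 29.4 and 27.6 in replicates 1 and 2, and gsy-1 (glycogen synthase) had one of 49.3. In the pentose phosphate pathway the strongest candidates had signals of 35.0 at gspd-1, which encodes the dehydrogenase of the first step, and 40.5 at tkt-1 (transketolase). The transaldolase gene tald-1 had no candidate in the whole experiment or in replicate 1, and 1 of 16.9 in replicate 2. In the pyruvate dehydrogenase complex, which passes pyruvate to the citrate cycle, they had signals of 32.5 at pdha-1 and 40.2 at pdhb-1 (the alpha and beta subunits), 36.6 at dld-1 (the dihydrolipoamide dehydrogenase) and 48.7 at dlat-1.

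The strongest candidates of the set, the 4 genes with a region included, were placed toward the upper part of all genes. A candidate was present in the whole-experiment ranked list for 30 of the 31 genes (96.8%), against 85.6% of other genes, and the median of the strongest was 42.1 in the set and 34.1 in other genes. In replicate 1 the medians were 23.5 in the set and 19.8 in other genes, and in replicate 2 they were 27.0 in the set and 20.1 in other genes. Ranked among all protein-coding genes, 26 of the 31 stood above the median in the whole experiment, 23 in replicate 1 and 25 in replicate 2. In all, 9 members stood in the top 10% in the whole experiment, 6 in replicate 1 and 9 in replicate 2. Medians were also taken within each of the 4 classes of territory, over all genes, with no signal for a gene without a candidate. They are therefore not on the same basis as the medians above. The set's median was the higher in each class. In the class of 3556 to 5879 bp (8 members) it was 35.8 against 33.4. In the class of up to 2144 bp (4 members) it was 41.0 against 23.9.

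**Figure D3:**
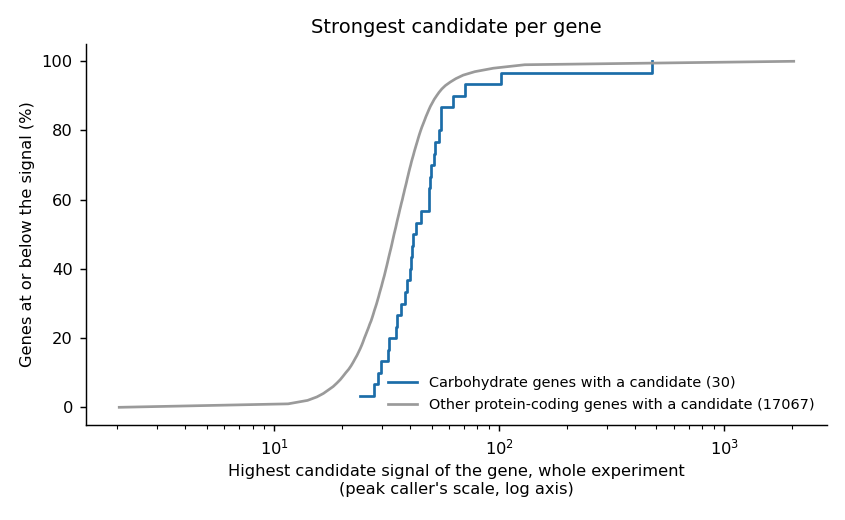
Cumulative percentage of genes against the signal of their strongest whole-experiment candidate (peak caller's scale, log axis), for the 30 carbohydrate genes with a candidate (blue) and the 17067 other protein-coding genes with one (grey). The blue line lies to the right over most of the range, with medians of 42.1 in the carbohydrate genes and 34.1 in the others.

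Candidates at an IDR of 0.05 or lower were held by 6 of the 27 members without a region. The same share was not counted over other genes without a region. Among the 27 members without a region, 26 had a whole-experiment candidate, with signals from 23.9 to 55.2 and a median of 40.7. Their lowest IDR per gene ran from 0.0110 to 0.636. Counting a candidate at an IDR of 0.05 or lower, 10 members had one (32.3%, exact 95% interval 16.7 to 51.4), against 8.18% of other genes: the 4 with a region and aldo-1, aldo-2, pgk-1, fbp-1, pygl-1 and pdha-1. Of the 30 strongest candidates, 19 (63.3%) overlapped a candidate in both replicates' ranked lists, against 50.4% in other genes. The strongest candidate lay in the gene body for 22 of 30 members (73.3%), against 67.8% of other genes, in the whole experiment. In replicate 1 it did so for 27 of 29 members (93.1%), against 67.1%, and in replicate 2 for 22 of 29 (75.9%), against 67.5%. The gene body made up 81.4% of the set's territory and 66.3% of that of other genes.

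**Figure D4:**
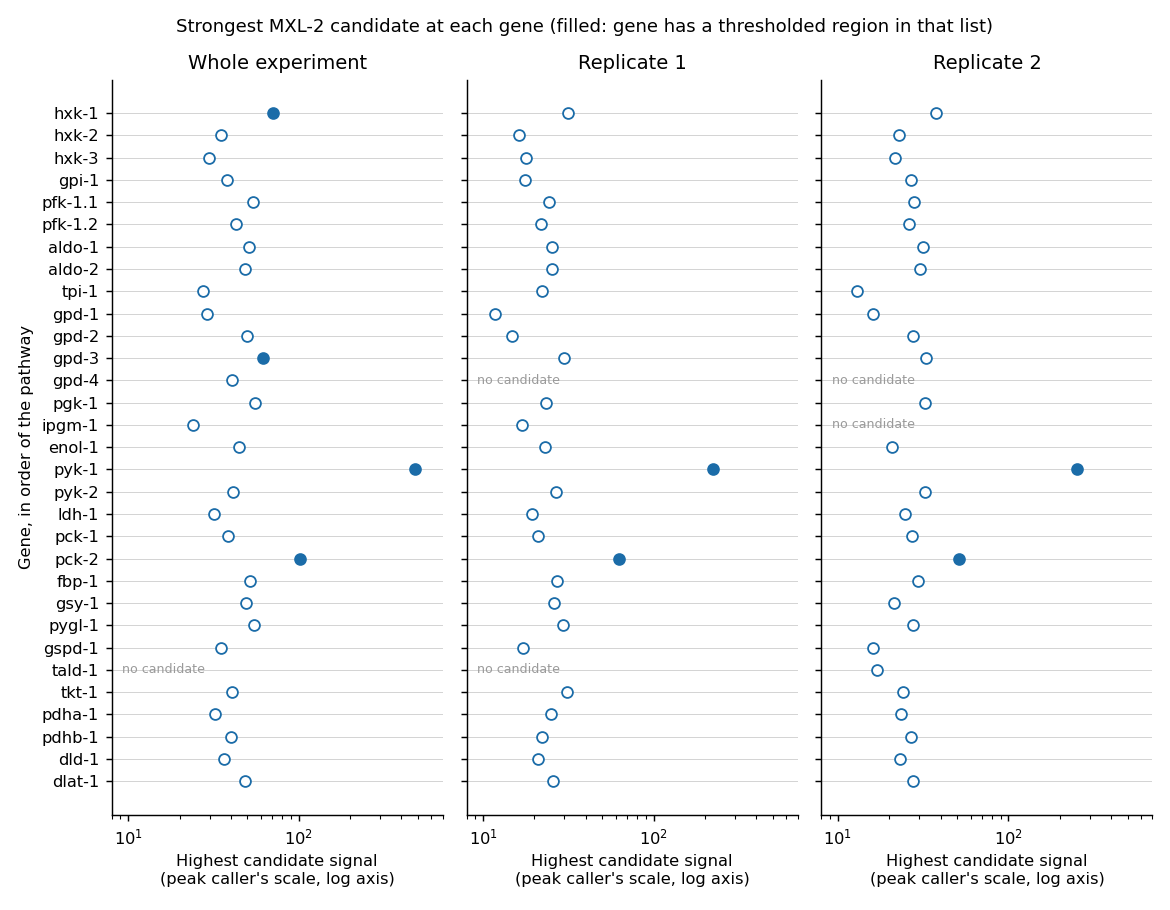
Signal of the strongest candidate at each of the 31 genes (rows, in pathway order) in the whole experiment, replicate 1 and replicate 2 (panels, peak caller's scale, log axis). Filled points mark genes with a thresholded region in that list; pyk-1, at 478, 223 and 252, stands far to the right of the others in all 3 panels.

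E-boxes were common in the territories of these genes and mostly without a thresholded peak. The set held 41 CACGTG sites in 20 of 31 genes (64.5%), against 45.7% of other genes with at least 1 site. Of the 41, 1 lay within 100 bp of a thresholded summit, that of pyk-1 (2.44%, exact 95% interval 0.0617 to 12.9), against 236 of 16966 sites (1.39%) in other genes. A candidate summit lay within 100 bp of 16 of the 41 sites (39.0%), against 26.6% of sites in other genes. The gene gpi-1 alone held 17 of the sites, between −328 and 5030 bp, 7 of them with a candidate of at most 38.1 and none with a region. The strongest candidate of a gene had a CACGTG within 50 bp in 5 of 30 members (16.7%: pyk-1, aldo-1, pfk-1.2, tkt-1 and pdhb-1), against 3.29% of other genes with a candidate. The IDR of these candidates was 1e-05 at pyk-1 and 0.0110 at aldo-1, but 0.454 at pfk-1.2, 0.386 at tkt-1 and 0.519 at pdhb-1. Close to the 5′ end the set was near the share of other genes: 0 of the 31 members had CACGTG from 250 bp before to 50 bp after it, against 5.85% of other genes, and 8 (25.8%) had it within 1000 bp to either side, against 28.3%. CACGTG reads the same on both strands, so each site was counted once.

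The 4 whole-experiment regions of the set resembled other assigned regions in signal, with a median of 86.4 against 82.0. CACGTG lay within 50 bp of 1 of the 4 summits (25%, exact 95% interval 0.631 to 80.6), against 147 of 916 in other genes (16.0%, 13.7 to 18.6). In windows 500 bp to either side it was found in 0 of 8 for the set and in 40 of 1832 (2.18%) for other genes. Both replicates listed 2 of the 4, against 276 of 916 (30.1%) in other genes. None of the 4 overlapped a noncoding RNA gene, against 269 of 916 (29.4%) in other genes. With 4 regions these shares cannot be told from those of other genes.

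Some regions near genes of the set were given to a neighbour, among them those upstream of gpd-1 and dlat-1. Upstream of gpd-1 a cluster of 4 regions was given to T09F3.2, whose 5′ end lies between them and gpd-1. The strongest, with the E-box pair shown above, lay at −5593 bp from gpd-1 and so beyond 5000 bp. It had a signal of 190 and ranked 77 of 968, with 94.0 in replicate 1 and 94.5 in replicate 2. The others lay at −4888 bp (signal 104; replicates 50.6 and 56.2), −4157 bp (signal 137, over a noncoding RNA gene; replicates 83.2 and 50.6) and −3499 bp (signal 83.0, with CACGTG; replicates 35.3 and 42.6). The first 3 were in both replicates' lists and the last in neither. The region upstream of dlat-1, at −1591 bp, had a signal of 91.9 with 1 CACGTG, besides the variant CACATG; it was thresholded in replicate 1 at 62.5 and not in replicate 2, where its signal was 33.7.

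**Figure D5:**
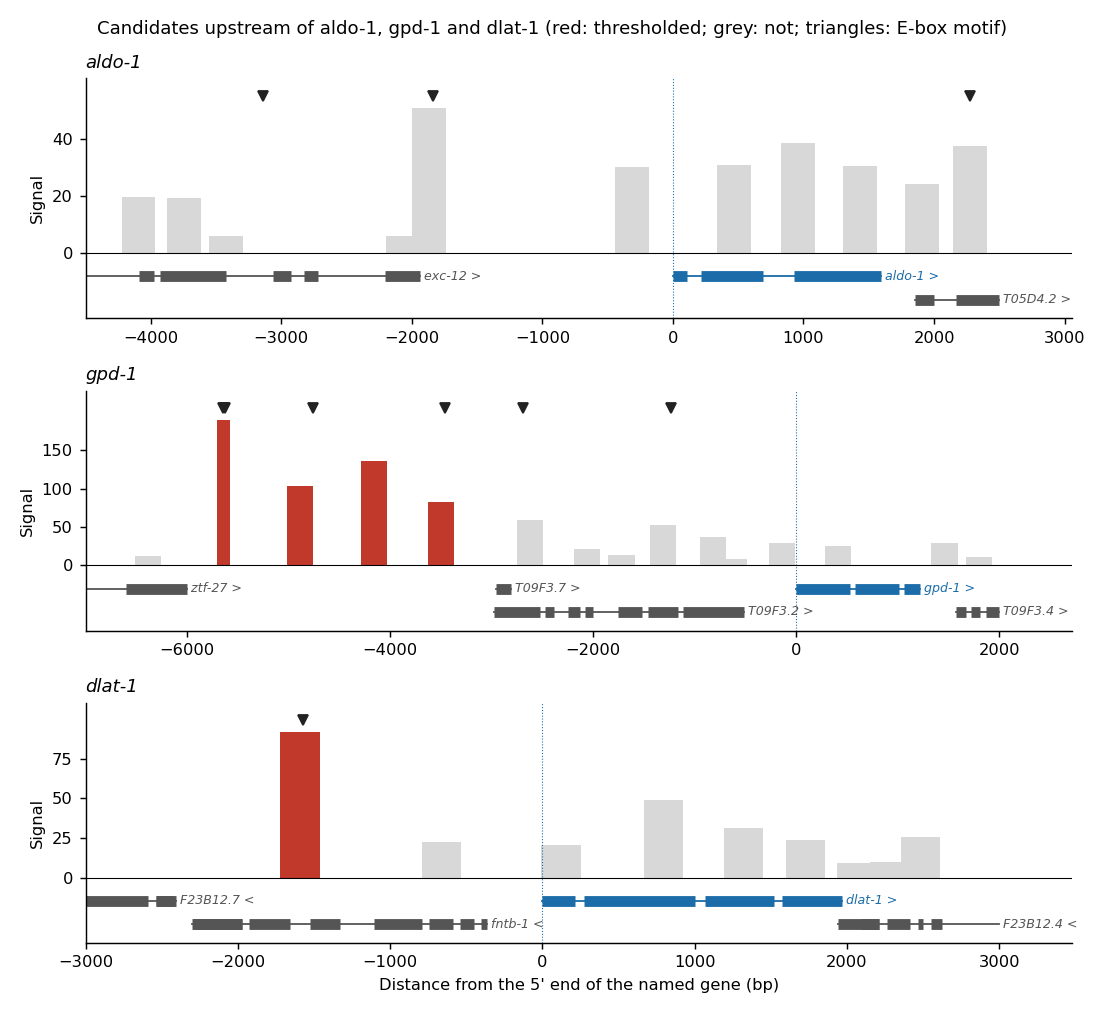
Whole-experiment candidates around aldo-1, gpd-1 and dlat-1, as signal (vertical axis, peak caller's scale) against distance from the 5′ end of the named gene in bp, with gene models beneath (boxes are exons) and triangles at each CACGTG. Red bars are thresholded in the whole-experiment list and grey bars are not; the 4 red bars upstream of gpd-1 lie between its 5′ end and ztf-27, and the aldo-1 peak of 51.1 is grey because it passed in the conservative list only.

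Where a region counted for every gene in reach, not only the nearest, 9 of the 31 genes had one (29.0%, exact 95% interval 14.2 to 48.0), against 8.98% of other genes: the 4 already named with gpd-1, gpd-2, dlat-1, ipgm-1 and tald-1. Several of these regions lay at the 5′ end of another gene. The region in reach of ipgm-1 (signal 81.7) lay at −178 bp from the cochaperone gene bag-1, and 1 of the 2 in reach of tald-1 (signal 127, in both replicates' lists) lay at −58 bp from the ribosomal protein gene rpl-7A. A further region at −4926 bp from pyk-1 (signal 124, in both replicates' lists) lay at −25 bp from eef-2, which encodes a translation elongation factor. The gpd-2 region was that of gpd-3. By chromosome, 3 of the 8 members on chromosome I had a region of their own, against 4.11% of other genes there, and 1 of the 3 on X, against 7.15%. On II to V 0 of 20 members had one, against 2.52 to 4.17% of other genes, shares at which 0 of 20 does not stand apart.

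A further 3 lists of sugar metabolism were counted by the same nearest-gene rule, beside 3.93% of all genes outside the set. Glycogen and trehalose metabolism had a region at 5 of 16 genes (31.3%), with tre-2 (a trehalase, signal 1468), tre-1 (a trehalase, 147), aagr-2 (an acid alpha-glucosidase-related gene, 103) and tps-2 (a trehalose phosphate synthase, 90.8) the strongest. The genes of this list had large territories, with a median of 6230.5 bp against 3554.5 bp in genes outside the set. The citrate cycle with anaplerosis and the glyoxylate cycle had a region at 0 of 25 genes, which does not stand apart from 3.93%. In the list of replicate 1 it was 0 of the 25, and in that of replicate 2 it was 1. Other pentose phosphate, hexosamine and pyruvate genes had a region at 1 of 17 (5.88%), T25B9.9, with a signal of 79.6 and a CACGTG. These lists were drawn up with earlier results in view, and the difference between any of them and the 31 genes was not tested.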

How the data were processed

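The deposited files are peak lists on ce11, in which the authors gave a ranked and a thresholded list for each of 2 biological replicates and for both together, besides a conservative pair. The deposited signal is the peak caller's enrichment. The deposited −log10 column of the ranked lists is the −log10 of the IDR. The sources used here name no aligner or peak caller, and without read counts no depth or precision per library can be given.

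Overlapping lines were joined, keeping the strongest summit, and placed on 19973 protein-coding genes of Ensembl release 115 (19962 matched to a RefSeq symbol). Sequence came from the genome, since no promoter table was used here. Distances run from the annotated 5′ end, negative upstream. Scripts used Python 3.11.15, numpy 2.4.6, scipy 1.17.1, Biopython 1.88 and matplotlib 3.10.9, and were tested on simulated data. Intervals are exact (Clopper-Pearson), cover counting error only and treat genes as independent.

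The members and lists were chosen with earlier results of these data known, and no interval given here allows for that choice. Named with values were all members with a thresholded region, the 5 others of highest candidate signal, and up to 4 genes with a region per further list; candidate values of the remaining members, and the regions given to neighbours, were added after their values were seen. The names R05F9.6, sodh-1, khk-1 and fgt-1 were not found and dropped out. No test between groups was possible with 1 group. Alternatives covered the list, the replicates, the IDR limit, the assignment rule, the E-box window and the overlap rule.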

Additional observations from a re-analysis of the deposited data

How the results depend on the processing

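The counts for the 31 genes are small and moved with the setting. Leaving out either replicate gave 2 members (2 to 2), 2 to 3 regions and 1.82 to 1.89% of other genes. The 50% of regions of higher signal gave 2 members and 2 regions, against 1.98% of other genes. An IDR limit of 0.001 gave 2 members and 2 regions, against 1.69% of other genes; a limit of 0.05, with joined candidates, gave 10 members, 14 regions and 2 with CACGTG, against 8.17% of other genes. Giving a region to every gene in reach gave 9 members and 13 regions, 3 with CACGTG and 6 in both replicates' lists, against 8.98% of other genes. Counting only summits within 1000 bp to either side of the 5′ end gave 1 member and 1 region, against 1.97% of other genes. That region, of gpd-3, lies inside the gene, in its coding exon at 926 bp, and not upstream. With this rule 0 regions had CACGTG and 0 were in both lists. A 5′ end limit of 1000 bp with gene bodies gave 0 with CACGTG and 1 in both lists, since the pyk-1 region then falls out, against 3.03% of other genes; a limit of 2000 bp gave 3.39% of other genes. Without priority of the gene body 1 region was in both lists. The conservative list gave 2 regions with CACGTG. Leaving out regions at noncoding RNA genes gave 2.78% of other genes. In 7 of 14 alternatives the count of members differed from the main count of 4 by more than 1. It also changed to 5 with the conservative list. With the 5′ end limit of 1000 bp, and without priority of the gene body, it was 3. The count ran from 1 to 10 over the alternatives. The regions of pyk-1 and pck-2 held in each replicate's list, at both IDR limits and among the higher-signal 50%, and those of hxk-1 and gpd-3 were lost under each replicate alone, the IDR limit of 0.001 and the higher-signal 50%. With depth unknown no interval can be given for a single signal, and 31 genes limit every share.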
